A study of Mesocricetus auratus with 8 samples.

Results

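The 10 genes described here cover cystine uptake, glutathione synthesis and reduction, and the glutathione peroxidase family. They were read in primary satellite cells (SCs, the muscle stem cells) of the Syrian hamster. They are the cystine transporter gene Slc7a11, the synthesis genes Gclc, Gclm and Gss, the glutathione reductase gene Gsr, and the glutathione peroxidase genes Gpx1, Gpx3, Gpx4, Gpx7 and Gpx8. They were found by symbol in the deposited table, where all 10 had values, out of 17590 genes with values, and all 10 were among the 12506 genes with enough counts to be tested.

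Wild-type SCs were isolated from hindlimb muscles of sexually mature male hamsters, put through preplating to deplete fibroblasts, and grown at 37°C for 48 h and then for 24 h in growth medium with 100 mM HEPES. RNA was taken at that point (control, 37°C, 0 h of cold, n = 4 libraries) or after a further 24 h at 4°C without a change of medium (cold, n = 4 libraries), so every cold library was also 24 h older and the effects of temperature and of time in culture cannot be told apart. The treatment labels of control replicates 1 to 4 give 3, 4, 5 and 6 days at 37°C, whereas their titles place all of them on day 3. Libraries are numbered 1 to 4 in each group, and whether a number stands for 1 animal was not given in the sources used here.

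Glutathione is a tripeptide of glutamate, cysteine and glycine. Cystine enters through the antiporter built from SLC7A11 and SLC3A2, is reduced to cysteine, and is joined to glutamate by glutamate-cysteine ligase, whose catalytic subunit is GCLC and whose modifier subunit is GCLM. Glutathione synthetase (GSS) then adds glycine, the glutathione-dependent peroxidases oxidize glutathione while reducing peroxides, and glutathione reductase (GSR) restores it with NADPH. GPX4 is the peroxidase that reduces lipid hydroperoxides within membranes, and its loss or the loss of glutathione leads to ferroptosis, the iron-dependent form of cell death that can kill cells of nonhibernators in the cold. The comparison asks whether the transcripts of this defence system differ between hamster SCs before and after 24 h at 4°C.

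The depth was 16530747 to 18533801 expected counts per library, and member counts ran from 145 to 3428, whole numbers in all 8 libraries for each of the 10 genes. The main axis of variation among the libraries (54.5% of the variance on principal components) ran between the libraries numbered 1 or 2 and those numbered 3 or 4, and the next (17.9%) ran between control and cold. The cells expressed the satellite cell and myoblast markers, 10 of 10 of which averaged at least 0.1 TPM, with a summed level of 2250 to 2710 TPM (a transcript level scaled for length and depth) in control and 2130 to 2500 TPM in cold libraries. Fibroblast markers (9 of 12 listed) summed to 1300 to 1850 and 1280 to 1790 TPM. Thy1 gave the largest part of this sum in every library (480 to 662 TPM). Summed TPM is not a share of cells, and the paper reports high purity of hamster isolates by Pax7 and MyoD staining. Of the leukocyte markers (4 of 8 averaging at least 0.1 TPM, 41.2 to 97.4 TPM in control and 44.1 to 105 TPM in cold libraries), Cd68 and Cd14 held most of the sum, and Ptprc and Adgre1 were at or near 0. The differentiating myocyte markers (10 of 10) summed to 5840 to 11000 TPM in control and 3870 to 6480 TPM in cold libraries, and the part of this difference in the results below was not tested. Markers of endothelial cells, pericytes, Schwann cells and adipocytes summed to at most 47.1 TPM per list in any library. In such bulk libraries, fewer cells of a type and less RNA per cell cannot be told apart.

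None of the 10 genes passed the test in either direction. Mean levels in the cold differed from the control mean by −3.32% (Gpx4) to 9.35% (Gss). With edgeR's quasi-likelihood test of cold against control, 0 of 10 members had an adjusted p under 0.05, where 0.072% of all genes tested did, and 1 of 10 (Gpx8) had an unadjusted p under 0.05, where 6.7% of all genes did. With the replicate number as a block, again 0 of 10 were called, against 5.33% of all genes tested (4.07% lower and 1.26% higher), and 1 of 10 (Gpx8) had an unadjusted p under 0.05, against 18.2% of all genes. DESeq2 also called 0 of 10, beside 133 lower and 3 higher of 16647 genes tested. With limma on log2 TPM, 0 of 10 were called, beside 4 lower and 0 higher of 13792 genes tested. The members' log2 fold changes (cold over control) lay between −0.06 and 0.12, with a median of 0.035 beside a median of 0.0071 over all genes tested, and 8 of 10 were above 0, as were 52.9% of all genes. Past the study's additional threshold of an absolute log2 fold change of at least 1, 0 of 10 were lower with the block, beside 0.808% of all genes tested, and 0 of 10 higher, beside 0.04%. Without the block, 0.04% of all genes were lower past both thresholds and 0.0% higher. A larger absolute change than that of any member was found in 29.3% of all genes tested and in 15.4% of the 5596 genes with a mean of at least 20 TPM.

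The precision bounds how much these transcripts could have changed relative to the rest of the library. RNA per cell is not among the values used here, so a change shared by all transcripts is not bounded. In the fit with the replicate block, the 95% confidence intervals of all 10 log2 fold changes lay between −0.23 and 0.23, and in the fit without it between −0.40 and 0.48, so the fold threshold of 1 in either direction lay outside every interval. The TPM values of control and cold libraries overlapped in all 10 genes, that is, 0 of 10 were separate, where 4.68% of all genes tested had separate groups (cold lower in 2.41% and higher in 2.27%). Gclc, Gss and Gpx8 were higher in the cold library of each number in 4 of 4 pairs (3 of 10 members, beside 12.8% of all genes tested), and 0 of 10 were lower in 4 of 4 pairs (10.5% of all genes). Some 23.3% of all genes kept 1 direction in 4 of 4 pairs.

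**Figure D1:**
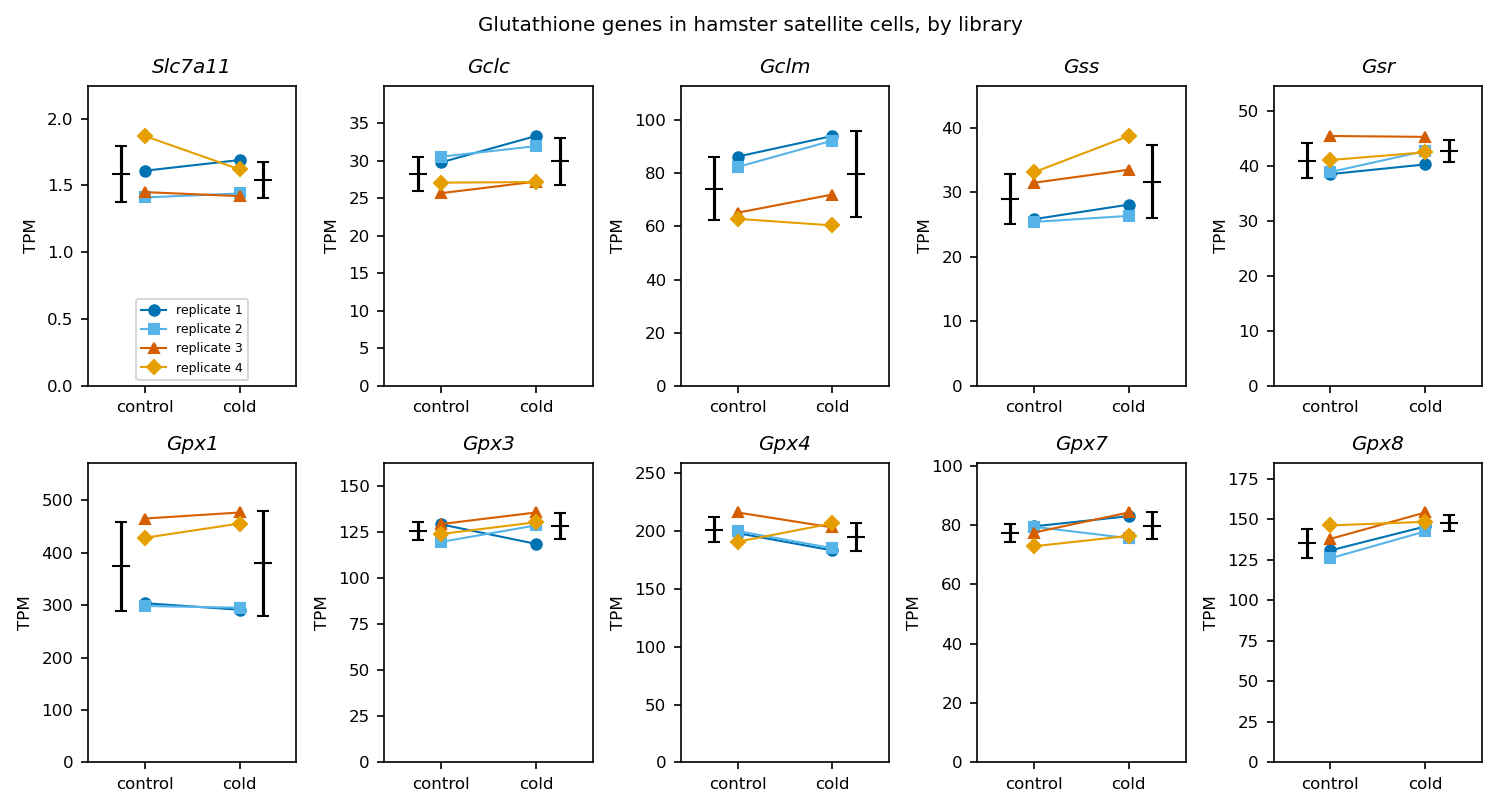
Level of each of the 10 genes in TPM (vertical axis, from 0) in the 4 control and 4 cold libraries. Coloured lines join libraries with the same replicate number, and black bars give the mean ± SD of each group (n = 4). Control and cold values overlap in every panel, and Gpx1, Gclm, Gclc and Gss separate replicates 1 and 2 from replicates 3 and 4.

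**Figure D2:**
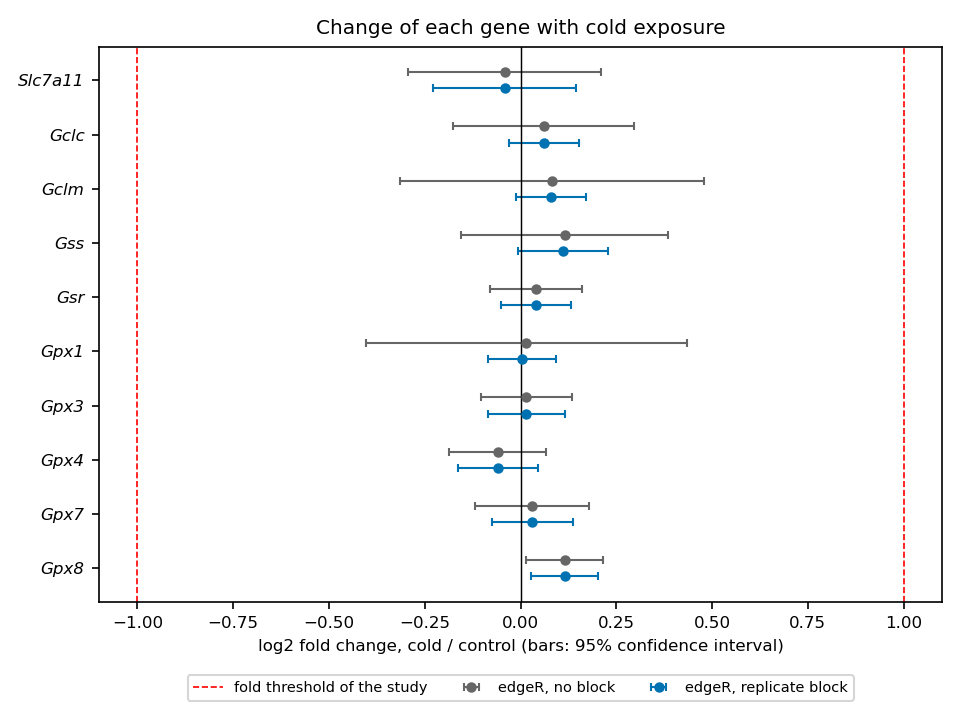
Log2 fold change of each gene, cold over control, with its 95% confidence interval (horizontal axis), from edgeR without (grey) and with (blue) the replicate block. All intervals stay inside the dashed lines at −1 and 1, and only those of Gpx8 leave out 0.

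Cystine uptake and glutathione synthesis come first in the pathway. Slc7a11 was the only member expressed at a low level. Its TPM in control replicates 1 to 4 was 1.61, 1.41, 1.45 and 1.87, and in cold replicates 1.69, 1.44, 1.42 and 1.62. The highest and the lowest of the 8 values were both control values, and the cold values lay between them. The means were 1.59 ± 0.21 and 1.54 ± 0.13 TPM (SD, n = 4 each), giving a log2 fold change of −0.04 (standard error, SE, 0.11, adjusted p = 0.999 by edgeR). Its counts, 145 to 201 per library, gave the widest interval in the fit with the replicate block, from −14.6% to 10.6%. Slc3a2, the gene of the heavy chain that SLC7A11 shares with other transporters, was far more abundant per transcript length, at 120 ± 18.3 TPM before and 118 ± 16.2 TPM after cold exposure (SD, n = 4 each, log2 fold change −0.05, edgeR adjusted p = 0.999). Slc3a2 was singled out after its values were seen.

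Gclc, the catalytic subunit gene, had 29.8, 30.6, 25.7 and 27.1 TPM in control replicates 1 to 4 and 33.3, 32.0, 27.2 and 27.2 TPM in cold replicates 1 to 4. All 4 libraries of replicates 1 and 2 were above all 4 libraries of replicates 3 and 4, in control and cold alike. Its means were 28.3 ± 2.28 and 29.9 ± 3.19 TPM (SD, n = 4 each), and its log2 fold change was 0.06 (SE 0.11, adjusted p = 0.999 by edgeR without and 0.517 with the replicate block). Gclm, the modifier subunit gene, showed the same order more strongly. It had 86.3, 82.4, 65.2 and 62.9 TPM in control replicates and 94.0, 92.3, 72 and 60.4 TPM in cold replicates. The cold library was higher in pairs 1, 2 and 3 and lower in pair 4. The means were 74.2 ± 11.9 and 79.7 ± 16.3 TPM (SD, n = 4 each), giving a log2 fold change of 0.08 (SE 0.18, or 0.04 with the replicate block, where the edgeR adjusted p was 0.361). The ratio of Gclc to Gclm TPM, a measure of the balance between the subunit transcripts, was 0.386 ± 0.036 at 37°C and 0.382 ± 0.047 after cold exposure (SD, n = 4 each, exact two-sided permutation p = 0.971).

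Gss, the gene of the second synthesis step, ran the other way across replicate numbers. Its TPM was 25.9, 25.4, 31.5 and 33.1 in control replicates 1 to 4 and 28.1, 26.4, 33.5 and 38.7 in cold replicates 1 to 4. The 4 libraries of replicates 1 and 2 were all below those of replicates 3 and 4, and each cold library was above the control library of its number, by 3.7% to 17.0%. The means were 29.0 ± 3.91 and 31.7 ± 5.61 TPM (SD, n = 4 each), giving a log2 fold change of 0.12 (SE 0.12, adjusted p = 0.999 by edgeR without and 0.315 with the replicate block). Without cold replicate 4, the unblocked value was 0.0046. That fit has fewer libraries of replicates 3 and 4 in the cold group than in control. The cold library was higher in each of the other 3 pairs. The cause of this move was not tested.

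Gsr, the reductase gene, was steadier. It had 38.5, 38.9, 45.4 and 41.1 TPM in the control and 40.3, 42.7, 45.3 and 42.5 TPM in the cold replicates 1 to 4. Replicate 3 was the highest library of both groups. The means were 41.0 ± 3.18 and 42.7 ± 2.05 TPM (SD, n = 4 each), giving a log2 fold change of 0.04 (SE 0.05, adjusted p = 0.999 by edgeR).

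Among the peroxidases, Gpx4 is the gene whose protein the study measured and links to ferroptosis. The study compared that protein between mouse and hamster SCs at baseline. The RNA values here compare hamster cells before and after cold exposure, a different contrast. Gpx4 TPM was 198, 200, 216 and 191 in control replicates 1 to 4 and 183, 185, 203 and 207 in cold replicates 1 to 4. The cold library was lower in pairs 1, 2 and 3 and higher in pair 4, with differences of −7.53%, −7.42%, −5.97% and 8.35% of the control value. The means, 201 ± 10.7 and 195 ± 12.1 TPM (SD, n = 4 each), differed by less than either SD (exact two-sided permutation p = 0.457). The log2 fold change was −0.06 (SE 0.06, adjusted p = 0.999 by edgeR), and the interval in the fit with the replicate block ran from −10.7% to 3.13%. In fits added after seeing the data, within replicates 1 and 2 alone the log2 fold change was −0.15 (edgeR adjusted p = 0.0560), and within replicates 3 and 4 alone it was 0.019 (edgeR adjusted p = 0.997). Each of these fits had only 2 libraries per group. The first called 11.6% of all genes tested in it and the second 0.397%, and Gpx4 was called in neither.

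Gpx1, the abundant cytosolic and mitochondrial peroxidase that reduces hydrogen peroxide, was the most highly expressed member. It had 304, 299, 465 and 429 TPM in control replicates 1 to 4 and 291, 295, 477 and 456 TPM in cold replicates 1 to 4. The 4 libraries of replicates 1 and 2 lay within 291 to 304 TPM and those of replicates 3 and 4 within 429 to 477 TPM, with nothing between them. Control and cold means were 374 ± 85.6 and 380 ± 100 TPM (SD, n = 4 each), giving a log2 fold change of 0.015 (SE 0.19, adjusted p = 0.999 by edgeR). With the block, the log2 fold change of Gpx1 was 0.0044 with a SE of 0.04, and its interval ran from −5.65% to 6.63%. Its direction was not the same in every pair, the cold library being lower in pairs 1 and 2 and higher in pairs 3 and 4.

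Gpx3, the secreted plasma peroxidase, had 129, 120, 129 and 124 TPM in control replicates 1 to 4 and 119, 129, 136 and 130 TPM in cold replicates 1 to 4. Cold replicate 1 was the lowest and cold replicate 3 the highest of the 8 libraries. Its log2 fold change was 0.015 (SE 0.05, adjusted p = 0.999 by edgeR). Both Gpx7 and Gpx8 encode peroxidases of the endoplasmic reticulum, where they take up peroxide made during protein folding. Gpx7 had 79.6, 79.5, 77.5 and 72.9 TPM in the control and 83.0, 75.6, 84.3 and 76.4 TPM in the cold replicates, and its log2 fold change was 0.030 (SE 0.07, adjusted p = 0.999 by edgeR).

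Gpx8 came nearest to a difference. It had 131, 126, 138 and 146 TPM in control replicates 1 to 4 and 146, 143, 154 and 149 TPM in cold replicates 1 to 4. The cold library was higher in 4 of 4 pairs, by 11.3%, 13.2%, 11.8% and 1.53%, and the groups overlapped because control replicate 4 was above cold replicates 1 and 2. The means were 135 ± 8.83 and 148 ± 4.97 TPM (SD, n = 4 each, exact two-sided permutation p = 0.0857, where 0.0286 is the smallest p that 4 against 4 libraries can give). The log2 fold change was 0.11 (SE 0.04, unadjusted p = 0.0287 and adjusted p = 0.650 with edgeR). With the replicate block it was 0.12 (SE 0.04, edgeR unadjusted p = 0.0124 and adjusted p = 0.131), an interval from 1.97% to 15.1% higher. Gpx8 was higher in the cold under each of its 19 alternative fits, with log2 fold changes of 0.09 to 0.14, and was called in 0 of 19. Over the 5 peroxidase genes, the summed level was 914 ± 97.2 TPM at 37°C and 930 ± 123 TPM after cold exposure (SD, n = 4 each), of which Gpx1 gave 40.6% ± 5.07 and 40.3% ± 5.46 and Gpx4 gave 22.2% ± 2.09 and 21.1% ± 1.53.

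The order of levels, in TPM and therefore per transcript length, was Gpx1, Gpx4, Gpx8, Gpx3, Gpx7, Gclm, Gsr, Gss, Gclc and Slc7a11, from means over the 8 libraries of 377 down to 1.56 TPM. Gpx1 exceeded Gpx4 1.9-fold and Gpx4 exceeded Gpx8 1.4-fold, each in 8 of 8 libraries and with separate ranges. The neighbours Gpx8 and Gpx3, and Gsr and Gss, had overlapping ranges but kept their order in 8 of 8 libraries. Gpx7 and Gclm, and Gss and Gclc, did not differ beyond their spread, each pair keeping its order in only 4 of 8 libraries. Both orders followed the replicate number, with Gclm above Gpx7 and Gclc above Gss in the 4 libraries of replicates 1 and 2 and the reverse in the 4 libraries of replicates 3 and 4. Slc7a11 stood apart, 18.6-fold below Gclc. Against all genes tested, Gpx1 lay at the 97.0th percentile of mean TPM, Gpx4 at the 94.0th and Slc7a11 at the 12.4th. The other peroxidase genes of the table were barely detected, with at most 0.32 TPM for Gpx5 and 0.14 TPM for Gpx6 in any library, and neither was tested. Gpx2 had no values.

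The members differed widely in how much of their spread followed the replicate number. When the sum of squares of log2(TPM + 0.1) over the 8 libraries was divided between condition, replicate number and remainder, replicate number held over 50% in 7 of 10 members, near the 63.5% of all genes tested that did so. The shares are not corrected for the number of levels, which is larger for replicate number than for condition. Replicate number therefore takes a sizeable share even where the spread has no structure. Its share was 99.2% for Gpx1, 92.8% for Gclm, 88.5% for Gss, 85.0% for Gclc, 83.4% for Slc7a11 and 78.5% for Gsr, above the median of 62.8% over all genes tested. It was below that median for Gpx7 (58.9%), Gpx4 (49.4%), Gpx3 (40.7%) and Gpx8 (38.4%). Condition held 50% for Gpx8, between 0.0363% and 12.8% for the other members, and a median of 7.5% over all genes tested. Gpx3, with 53.3% in the remainder, followed neither.

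**Figure D3:**
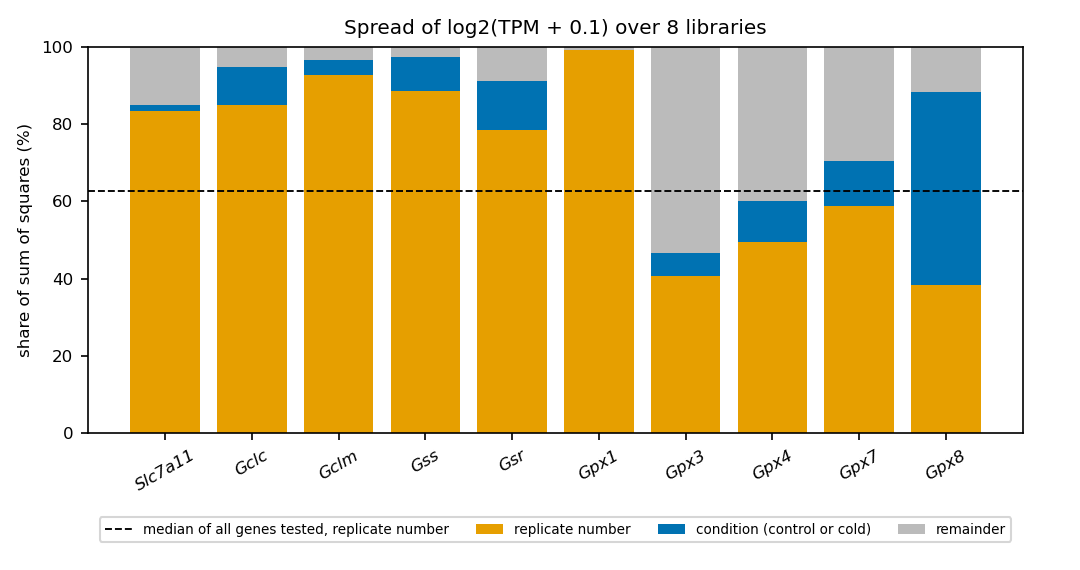
Share of the sum of squares of log2(TPM + 0.1) over the 8 libraries (vertical axis, percent) that lies between replicate numbers (orange), between control and cold (blue) and in the remainder (grey), for each gene. The dashed line is the median share of replicate number over all genes tested, 62.8%. Replicate number takes 99.2% for Gpx1, and condition takes 50% for Gpx8.

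In Gpx1, Gss, Gclm and Gclc, the libraries of replicates 1 and 2 did not overlap those of replicates 3 and 4 (4 of 10 members, beside 32.6% of all genes tested). Gpx1 and Gss were higher in replicates 3 and 4, and Gclm and Gclc in replicates 1 and 2. Accordingly, over the 8 libraries Gclc and Gclm went together (Pearson r = 0.92 on log2(TPM + 0.1)), Gss and Gpx1 went together (r = 0.88), and Gclc went against Gpx1 (r = −0.93) and Gclm against Gss (r = −0.86). The 8 points share this split of replicate numbers, so the correlations are descriptions only. Some marker levels were split in the same way and others were not. Over all 8 libraries, 3 of 10 differentiating myocyte markers were higher in replicates 1 and 2 and 7 overlapped. Of 10 satellite cell markers, 2 were higher on each side and 6 overlapped. Of 9 fibroblast markers, 6 were higher in replicates 3 and 4, as were 3 of 4 leukocyte markers. Counts within a group set only 2 libraries against 2, which separate more easily, and the share of all genes was not computed for them. Within control libraries, 10 of 10 differentiating myocyte markers were higher in replicates 1 and 2, and within cold libraries 7 of 10 were, 1 was lower and 2 overlapped. Their sum was 10910 and 11050 TPM in control replicates 1 and 2 against 5844 and 6435 TPM in control replicates 3 and 4, and in cold libraries it was 5539 and 6481 against 3881 and 3873 TPM. Among fibroblast markers, 6 of 9 were higher in replicates 3 and 4 within each group and 3 (Col1a1, Col1a2 and Postn) overlapped. Of the 8 leukocyte markers chosen, only 4 averaged at least 0.1 TPM. Of these, 3 (Cd68, Csf1r and Cd14) were higher in replicates 3 and 4 within each group, and Laptm5 overlapped. Ptprc, Adgre1 and Itgam were at most 0.07 TPM in any library. The satellite cell markers went both ways, with 6 of 10 higher in replicates 1 and 2 and 3 higher in replicates 3 and 4 within control, and 4 and 2 within cold. Myog, a driver of differentiation, had 1008 and 1016 TPM in control replicates 1 and 2 and 449 and 480 TPM in control replicates 3 and 4. Cd68 had 26.5 and 23.6 TPM in the first and 50.6 and 35.8 TPM in the latter. The summed fibroblast markers had 1303 and 1322 TPM in the first and 1534 and 1849 TPM in the latter. The part of the cells these markers stand for in the levels of Gpx1, Gclm, Gclc and Gss was not tested.

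By a rule of highest Pearson r over the 8 libraries among 9308 genes with a mean of at least 5 TPM, the genes most like Gpx4 were CUNH12orf57 (r = 0.97), Tmem115 (r = 0.97) and Trappc9 (r = 0.96). Among those most like Slc7a11 were Pelo (r = 0.93) and Sms (r = 0.93). These are the highest of 9308 values over 8 points and describe the libraries only.

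The genes that feed, use and control the pathway gave few calls as well. Of 158 other genes listed in 9 groups, 131 passed the filter on low counts, and 62 had a log2 fold change above 0 and 69 below, with a median of −0.0075. The medians of the 8 groups with tested genes lay between −0.042 and 0.028. None of the 131 was called with edgeR without the block. With the block, 1 of 131 was called (0.763%, beside 5.33% of all genes tested) and 21 had an unadjusted p under 0.05, where 18.2% of all genes did. No log2 fold change reached the fold threshold, and 124 of 131 lay within 0.2 of 0 in the fit with the replicate block.

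The single call was Dpep1, in the group for cysteine and precursor supply, which encodes a membrane dipeptidase that splits cysteinylglycine, a product of glutathione breakdown outside the cell. Its TPM was 20.2, 21.7, 18.3 and 27.9 in control replicates 1 to 4 and 10.9, 16.7, 16.4 and 19.6 in cold replicates 1 to 4. Each cold library was below the control library of its number, and the groups overlapped. The means were 22.0 ± 4.13 and 15.9 ± 3.65 TPM (SD, n = 4 each). The log2 fold change was −0.49 in both fits, with an edgeR adjusted p of 0.630 without and 0.00158 with the replicate block. It was −0.67 within replicates 1 and 2 alone (edgeR adjusted p = 0.00212) and −0.35 within replicates 3 and 4 alone (edgeR adjusted p = 0.997), both without the block. The fit to replicates 1 and 2 alone called 11.6% of all genes tested in it, and the fit to replicates 3 and 4 alone 0.397%. In the same group 14 of 20 genes were tested, and Ahcy, which hydrolyses S-adenosylhomocysteine, had a log2 fold change of −0.10 (edgeR adjusted p = 0.137 with the block). Within replicates 1 and 2 alone, Ahcy was at −0.15 and passed the test (edgeR adjusted p = 0.0149), as did 11.6% of all genes, and within replicates 3 and 4 alone it was at −0.052 (edgeR adjusted p = 0.997).

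Among genes of glutathione use, degradation and transport, 21 of 29 were tested and 0 were called. Gstp1, a glutathione transferase and the most abundant of them, was at 1314 ± 60.2 TPM before and 1330 ± 36.2 TPM after cold exposure (SD, n = 4 each), and Glo1, the first enzyme of glutathione-dependent methylglyoxal removal, at 220 ± 10.7 and 219 ± 10.4 TPM. Of the thioredoxin and glutaredoxin genes, the parallel thiol system, 12 of 14 were tested and 0 called. Txn was at 1774 ± 118 TPM before and 1640 ± 36.6 TPM after cold exposure (SD, n = 4 each), with a log2 fold change of −0.11 (edgeR adjusted p = 0.112 with the block), and Txndc17 had a log2 fold change of −0.062. Of the NADPH supply genes, which provide the electrons GSR uses, 16 of 17 were tested and 0 called, and Pgd and Mthfd2 had log2 fold changes of 0.039 and 0.059.

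The genes that control transcription of the pathway also gave no call over the 8 libraries. NRF2 (Nfe2l2) and ATF4 are the main activators of Slc7a11 and of the ligase genes in oxidative stress and amino acid shortage. Of the NRF2 regulation and target genes, 16 of 20 were tested and 0 called, with 9 below and 7 above 0, and the most abundant, Sqstm1 and Rbx1, had log2 fold changes of −0.085 and −0.062. Within replicates 1 and 2 alone, Sqstm1 was at −0.17 and passed the test (edgeR adjusted p = 0.0351), as did 11.6% of all genes. Of the ATF4 genes, 18 of 18 were tested and 0 called. Atf4 itself was at 458 ± 26.2 and 459 ± 26.2 TPM (SD, n = 4 each), and Shmt2 had a log2 fold change of 0.035. GPX1, GPX3 and GPX4 carry selenocysteine, whose insertion needs its own factors. Of the selenoprotein and selenocysteine synthesis genes, 22 of 25 were tested and 0 called, with 9 below and 13 above 0, and Selenof and Selenok had log2 fold changes of 0.017 and −0.11. Of the oxidative folding genes of the endoplasmic reticulum, the compartment of GPX7 and GPX8, 12 of 12 were tested and 0 called, with Pdia3 at 0.0034 and P4hb at −0.011 on the log2 scale.

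**Figure D4:**
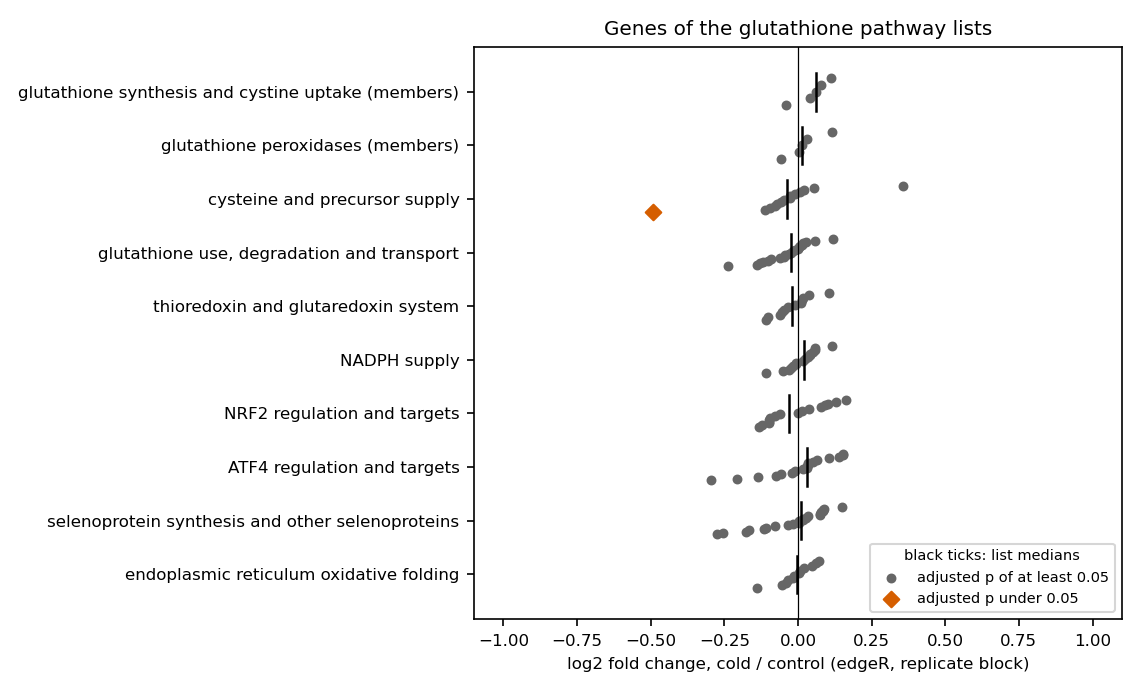
Log2 fold change, cold over control, of every tested gene in 10 gene groups (horizontal axis, edgeR with the replicate block), with 1 row per group and a black tick at each group's median. Grey points had an adjusted p of at least 0.05, and the diamond is Dpep1, the only gene under it, at −0.49.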

How the data were processed

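RNA-seq libraries of hamster SCs (4 control, 4 cold) were compared. Poly(A) libraries were sequenced as 150 bp read pairs, and the submitters' processing notes name HISAT and HISAT2 without roles. The counting program and genome build are not given in the sources used here. The authors deposited expected counts per gene that are not normalized (about 96.5% whole numbers), TPM values scaled within each library and rounded to hundredths, and a normalized count, a signal scaled by the authors, which was not used.

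After rounding, the expected counts went into edgeR 4.0.16 under R 4.3.3 (filterByExpr, TMM normalization, quasi-likelihood F test, Benjamini-Hochberg over 12506 genes), with a call at an adjusted p under 0.05. Standard errors were the absolute log2 fold change over the square root of F, and 95% intervals used the fit's total degrees of freedom. TPM of single genes was compared by an exact permutation test over 70 arrangements. limma 3.58.1 and DESeq2 1.42.0 were alternatives.

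Replicate numbers are in the titles and column names. Deviations from group means correlated at 0.609 to 0.659 between same-numbered control and cold libraries and at −0.609 to 0.591 between differently numbered ones, the positive values all within replicates 1 and 2 or within replicates 3 and 4. Much of the correlation therefore follows that split. Every same-numbered pair was over 0.1, so the numbers were taken to pair the libraries and a replicate block was fitted beside the unblocked fit. Differently numbered pairs on the same side of that split were also over 0.1, at 0.432 to 0.591. This mark therefore does not establish the pairing of individual numbers. p-values measure the spread between these libraries only.

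The members and gene lists were chosen with earlier results of these data known. Named genes were the 10 members and, from each pathway list, up to 4 genes called with the block, filled up to 2 by the most abundant. For Gpx4 and Slc7a11, the 3 genes most like each were taken, of which 1 is not reported here. All 10 members matched a RefSeq gene by identifier. No coordinates or sequences were used.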

Additional observations from a re-analysis of the deposited data

Results flagged for a closer look

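Of 52 groups of 4 libraries (each named gene in control or cold), 1 had an isolated value by Dixon's criterion, where chance alone would give 2.6. Gstp1 in cold replicate 2 was at 1276 TPM, against 1342 to 1353 TPM for the rest of the cold group. None of the 10 members had an isolated value.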

How the results depend on the processing

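The count of members with an adjusted p under 0.05 was 0 in each direction under every alternative run, and the 190 alternative log2 fold changes of the 10 members had adjusted p-values down to 0.056 and absolute values up to 0.196. Of these, 19 differed in sign from the reported value. The numbers of genes called depended on the setting. Past both thresholds, 5 genes were lower and 0 higher, against 8 lower with library totals, 68 with DESeq2, 15 with no filter on low counts, 3 with the stricter filter of a mean of 10 counts, 3 with limma at either pseudocount (0.1 or 1 TPM), and 101 lower and 5 higher with the replicate block. At an adjusted p alone, 9 were lower and 0 higher, against 14 lower with library totals, 133 lower and 3 higher with DESeq2, 25 with no filter, 4 with the stricter filter or limma, and 509 lower and 158 higher with the replicate block. Leaving out 1 library gave 0 to 33 lower and 0 to 1 higher past both thresholds, and 0 to 45 lower and 0 to 1 higher at an adjusted p alone, the most lower genes each time without control replicate 3. The replicate block changed the call of Dpep1 and of no other named gene.

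Fits added after seeing the data gave, past both thresholds, 175 lower and 8 higher in replicates 1 and 2 alone, 27 and 1 in replicates 3 and 4 alone, and 91 and 1 with DESeq2 and the replicate block; at an adjusted p alone these were 853 and 589, 48 and 2, and 318 and 38. Replicates 1 and 2 alone called Dpep1 (−0.67), Ahcy (−0.15) and Sqstm1 (−0.17), and replicates 3 and 4 alone called none of the named genes, where 11.6% and 0.397% of all genes were called. Some log2 fold changes near 0 changed sign. Without a filter Pdia3 was −0.0031, and with limma Atf4 was 0.0032 and P4hb 0.0053 at either pseudocount. In replicates 1 and 2 alone, Slc7a11 was 0.0069, Gpx1 −0.077, Gpx3 −0.064, Gpx7 −0.051, Gstp1 −0.0036, Atf4 0.0037, Selenof −0.012 and P4hb 0.015. In replicates 3 and 4 alone, Gpx4 was 0.019, Sqstm1 0.00051 and Pdia3 −0.049. Leaving out 1 library changed the sign of 12 of 26 named genes, moved 11 others by over 1.5 times and left 3 (Gpx8, Dpep1 and Ahcy) within 1.5 times. These fits have no block, so dropping 1 library leaves the replicate numbers unequal between groups. Leaving out 1 took Gpx1 from −0.10 to 0.12, Gclc from −0.0011 to 0.11, Gclm from −0.013 to 0.20, Gpx3 from −0.0083 to 0.045, Gpx7 from −0.013 to 0.053, Slc7a11 from −0.10 to 0.026, Pdia3 from −0.057 to 0.042, P4hb from −0.048 to 0.016, Atf4 from −0.059 to 0.012, Gstp1 from −0.012 to 0.025, Glo1 from −0.060 to 0.011 and Selenof from −0.00014 to 0.033. Without a change of sign, it took Gpx4 from −0.097 to −0.040, Gsr from 0.016 to 0.073, Gss from 0.0046 to 0.18, Txn from −0.17 to −0.073, Txndc17 from −0.087 to −0.025, Mthfd2 from 0.00077 to 0.11, Pgd from 0.0028 to 0.072, Sqstm1 from −0.16 to −0.035, Rbx1 from −0.086 to −0.031, Shmt2 from 0.0092 to 0.050 and Selenok from −0.20 to −0.033. The TPM difference then ran from −0.101 to 0.0525 for Slc7a11 and from −26.6 to 36.2 for Gpx1. The cause of these moves was not tested.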

Other observations

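The members that split by replicate number had close companions, chosen here after their values were seen. Over the 8 libraries, in log2(TPM + 0.1), the genes most like Gpx1 were Gm2a, the GM2 ganglioside activator of lysosomes (r = 0.998, mean 227 TPM), Ltbp3, a binding protein of latent TGF-beta (r = 0.996, mean 45.5 TPM), and Lpcat3, which places polyunsaturated fatty acids into phospholipids (r = 0.996, mean 49.2 TPM). Those most like Gclm were B4galt6 (r = 0.994, mean 17.3 TPM), Ctdsp2 (r = 0.994, mean 89.0 TPM) and Stim2, a calcium sensor of the endoplasmic reticulum (r = 0.989, mean 35.9 TPM). These were the highest of 9308 correlations over 8 libraries that fall into replicates 1 and 2 and replicates 3 and 4, so they describe that split.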
